A study of Mus musculus with 20 samples.

Results

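A set of 10 genes that glucocorticoids induce in many tissues was followed in T-cell acute lymphoblastic leukemias (T-ALLs) of the mouse: *Tsc22d3*, *Klf9*, *Per1*, *Zbtb16*, *Sgk1*, *Dusp1*, *Mt1*, *Mt2*, *Errfi1* and *Cebpd*. The list was set by gene symbol with earlier results of these data known, and each of the 10 symbols matched 1 of the 39017 genes in the deposited table. Glucocorticoids bind the glucocorticoid receptor, the product of *Nr3c1*, which moves to the nucleus and activates transcription at its response elements. In lymphoid cells this programme restrains inflammatory and growth signals and can end in apoptosis, and steroids of this class are a mainstay of treatment for acute lymphoblastic leukemia.

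RNA was sequenced from the bone marrow of irradiated recipient mice, C57Bl/6 x 129Sv/Jae F1 animals, that carried 1 transplanted leukemia each. All leukemias arose after insertional mutagenesis (IM) with the MOL4070LTR retrovirus in mice of that F1 background. Each leukemia has 2 libraries, and the column name of 1 carries the letters VEH and that of the other the letters DEX. Neither the sample labels nor the study's text explains these letters, so "DEX" and "VEH" below name columns and not an established treatment. Nor do the labels say whether 2 libraries of a leukemia are separate recipients, so p-values measure the spread between these libraries and leukemias. The leukemias 5C, 8633 and JW14 are called NOTCH-silent here, because the summed level of 8 NOTCH1 target genes was 1.80 to 5.59 FPKM (fragments per kilobase of exon per M counts) in their VEH libraries against 266 to 437 FPKM in the other 6. The further leukemia 4638 is not named in the study's text and was kept out of the tests. Its NOTCH1 targets were also low (11.4 FPKM in VEH, 13.8 FPKM in DEX).

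The 18 libraries of the 9 leukemias held 8226528 to 201222288 counts (median 24451898), and a floor of 3 counts on 1 kb of exon lay between 0.0149 and 0.365 FPKM. In 5 of them (VEH of 5C, DEX of 20M, 73M, JW14 and JW81) nuclear ribosomal RNA genes stood at 21.6 to 64.0 counts per M counts, against at most 0.00497 in the others. This group of libraries falls on the DEX side in 4 leukemias and on the VEH side in 5C, so results are also given without it. Of the T lineage genes, *Cd3e* stood at 15.3 to 35.3 FPKM and *Lck* at 115 to 325 FPKM over these libraries. *Cd8a*, on the same list, held 0.0334 to 0.584 FPKM in the NOTCH-silent leukemias and 0.239 to 179 FPKM in the others. RNA of marker genes of other marrow lineages was present at changing levels. The summed level of 12 neutrophil genes ranged from 44.2 FPKM (JW14) to 4648 FPKM (73A) in VEH libraries and was lower in DEX in 7 of 9 leukemias, with a median ratio of 0.712. Over 10 macrophage, 10 erythroid and 9 B lineage genes the median DEX to VEH ratio was 1.01, 0.902 and 0.989. None of the defining neutrophil, macrophage or erythroid genes was at 0 outside the NOTCH-silent leukemias, and *Elane* was at 0 in 2 of their libraries. In bulk RNA, fewer cells of a type and less RNA per cell cannot be told apart.

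The receptor gene itself was well expressed in every leukemia. *Nr3c1* stood at 21.4 to 53.2 FPKM in VEH and 28.6 to 80.9 FPKM in DEX, and it was higher in DEX by 0.58 ± 0.10 (log2 fold change ± SE; adjusted p = 0.00561, edgeR with Benjamini-Hochberg adjustment, as for every adjusted p below). The ratio of DEX to VEH was 1.28 to 1.97 in the 6 leukemias with NOTCH1 targets and 1.00 to 1.34 in the NOTCH-silent leukemias. The difference of these changes did not pass the test (-0.53 ± 0.15, adjusted p = 0.231).

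Of the 10 genes, 7 reached 1 FPKM on average and were tested among 11339 genes. Among these 7, 4 genes (*Tsc22d3*, *Klf9*, *Zbtb16* and *Dusp1*) were higher in DEX libraries than in VEH libraries of the same leukemia, and none was lower. Over all genes tested, 6.22% were called higher and 6.79% lower. The median log2 fold change of the 7 genes was 0.96, against 0.0039 over all genes. The same 4 genes were higher in DEX in every one of the 9 leukemias, which 1.77% of all genes were. *Per1*, *Mt1* and *Sgk1* did not pass the test over all 9 leukemias. *Klf9* and *Zbtb16* passed the limit of 1 FPKM only through the NOTCH-silent leukemias, since their mean over the others was 0.242 and 0.258 FPKM. With a limit of a mean of 0.1 FPKM all 10 genes entered, 5 were called higher and none lower, and *Errfi1* was the addition, where 3.69% of 16494 genes were called higher.

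**Figure D1:**
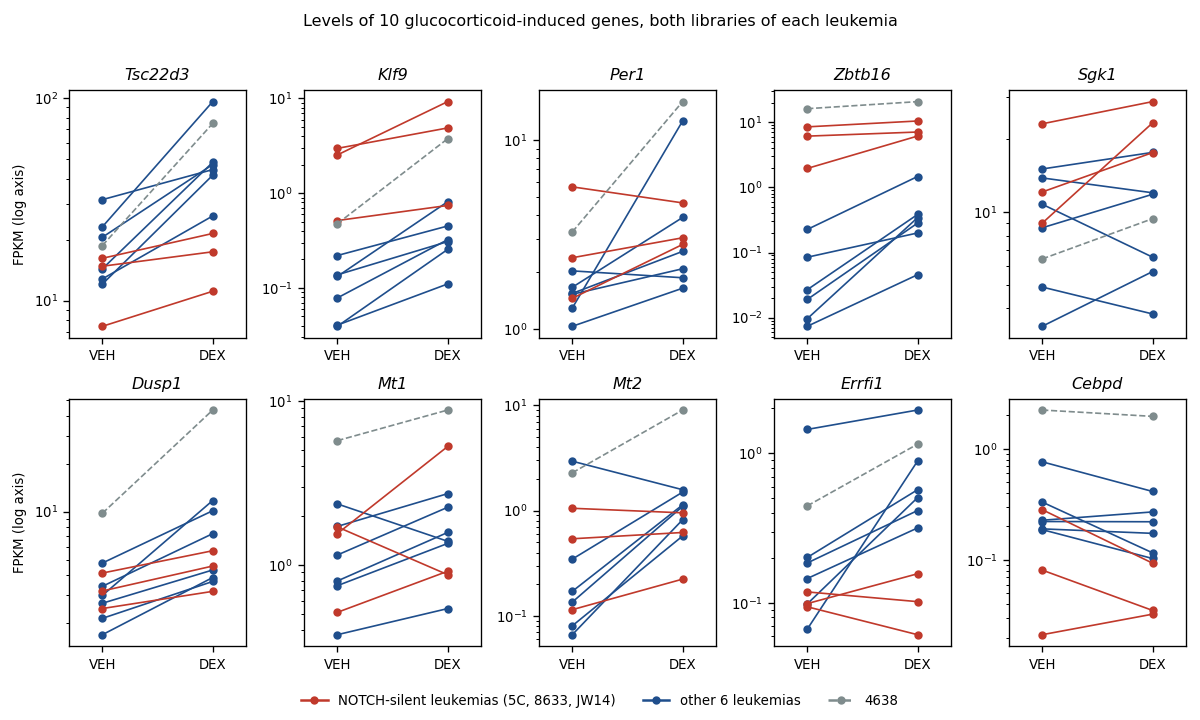
Level of each of the 10 genes in FPKM (log axis) in the VEH and the DEX library, with a line joining the 2 libraries of a leukemia; red marks the 3 NOTCH-silent leukemias, blue the other 6 and grey dashes 4638. Every line of *Tsc22d3*, *Klf9*, *Zbtb16* and *Dusp1* rises, and the red lines of *Klf9* and *Zbtb16* start above all blue lines.

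*Tsc22d3* (ENSMUSG00000031431, chrX:140539528-140600659) encodes GILZ, a leucine zipper protein that restrains NF-κB and AP-1 and that serves as a standard readout of glucocorticoid receptor activity. Coordinates of genes are those of GENCODE release M21 on GRCm38. On average over the 18 libraries *Tsc22d3* was the most abundant of the 10 genes per length of exon (28.1 FPKM). Among the leukemias with NOTCH1 targets, JW81 went from 23.1 FPKM in VEH to 95.8 FPKM in DEX, 20M from 12.1 to 41.6, 73A from 14.4 to 48.1, 78A from 20.6 to 46.9, 2M from 12.8 to 26.2 and 73M from 31.5 to 44.3. The ratio of DEX to VEH was thus 1.41 (73M) to 4.14 (JW81), with a median of 2.82. In the NOTCH-silent leukemias the level moved from 16.2 to 21.4 FPKM in 5C, from 7.47 to 11.1 in 8633 and from 14.8 to 17.4 in JW14. These ratios of 1.33, 1.49 and 1.18 were each past the 95% counting interval (lowest bound 1.08, JW14), and they lay under all others except that of 73M. Over the 9 leukemias the gene rose by 1.11 ± 0.20 on the log2 scale (adjusted p = 0.00700).

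The difference of the *Tsc22d3* change, NOTCH-silent minus others, was -1.02 ± 0.31 (adjusted p = 0.252) in edgeR and was not called; the DESeq2 Wald test gave -1.0 with an adjusted p of 0.0349. On log2(FPKM + 1), the mean change was 0.38 ± 0.15 (SD, n = 3) in the NOTCH-silent leukemias and 1.33 ± 0.56 (SD, n = 6) in the others (exact permutation p = 0.0357, where the smallest possible is 0.0119). The VEH levels of the groups overlapped and did not pass the test (-0.53 ± 0.36, adjusted p = 0.288). In DEX libraries they did not overlap: the NOTCH-silent leukemias held 11.1 to 21.4 FPKM and the others 26.2 to 95.8 FPKM. This difference of -1.59 (adjusted p = 0.0213) stands beside 1497 of 11339 genes called lower in the same comparison. The share of all genes without overlap was not computed for DEX libraries. Leukemia 4638, low in NOTCH1 targets, rose 4.00-fold, from 18.7 to 74.8 FPKM. With 4638 placed among the NOTCH-silent leukemias the difference of the change was -0.62 (adjusted p = 0.561), and with 4638 among the others -1.1 (adjusted p = 0.347).

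The RefSeq promoter table (GRCm38.p6, 250 bases before and 50 after each start) held 17 windows for 8 of the 10 genes; *Zbtb16* and *Cebpd* were not matched. Each window was searched on both strands for AGAACA, an arm of the glucocorticoid response element, and for the full element, which is AGAACA, any 3 bases and TGTTCT. The arm was in 4 of the 17 windows and in 19% of 32841 mouse promoter windows. The stretch shown first lies before the outermost listed start of *Tsc22d3*, chrX:140600523-140600772 on the minus strand. It is shown because this gene is the most abundant of those that rose. No other listed *Tsc22d3* start held an arm in its window. Capitals mark the single arm, which reads TGTTCT on this strand.
Tsc22d3: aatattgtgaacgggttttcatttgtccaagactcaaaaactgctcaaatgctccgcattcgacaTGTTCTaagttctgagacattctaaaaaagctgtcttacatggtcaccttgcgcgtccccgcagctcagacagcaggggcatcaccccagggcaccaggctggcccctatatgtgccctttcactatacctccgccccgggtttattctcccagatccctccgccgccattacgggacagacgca
The full element was in 3 promoter windows of the mouse (0.00913%), and *Sgk1* holds 1 of these 3. In its stretch chr10:21993640-21993889, on the plus strand, the element began 189 bases before the start. Capitals near the 5′ end mark an E-box (CACGTG) that overlaps another arm.
Sgk1: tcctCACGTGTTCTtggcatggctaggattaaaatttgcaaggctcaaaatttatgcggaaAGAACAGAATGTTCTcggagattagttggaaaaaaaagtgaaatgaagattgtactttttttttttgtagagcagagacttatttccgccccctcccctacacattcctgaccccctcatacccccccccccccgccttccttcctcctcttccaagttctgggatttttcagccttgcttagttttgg
A match is a description of these letters and not of a bound site.

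*Sgk1* (ENSMUSG00000019970, chr10:21882184-21999903), a kinase that acts downstream of PI3K and regulates ion transport and survival, had the smallest change of the 7 genes tested. It fell from 4.90 to 3.79 FPKM in 20M, from 10.8 to 6.52 in 2M and from 13.8 to 12.0 in 78A. It rose from 3.37 to 5.68 FPKM in 73A, from 8.61 to 11.8 in 73M and from 15.1 to 17.6 in JW81. Each of these 6 moves was past its counting interval, so the leukemias with NOTCH1 targets were divided evenly in direction. In the NOTCH-silent leukemias *Sgk1* was higher in DEX throughout, from 23.2 to 28.6 FPKM in 5C, from 12.1 to 17.6 in 8633 and from 9.0 to 23.4 in JW14. Over the 9 leukemias the log2 fold change was 0.31 ± 0.17 (adjusted p = 0.242), and the NOTCH-silent leukemias exceeded the others by 0.68 ± 0.32 (adjusted p = 0.497); neither passed the test. Without JW14 these values were 0.18 and 0.40. In edgeR, *Sgk1* and *Mt1* were the genes of the 7 with a larger change in the NOTCH-silent leukemias, and the sign of the *Mt1* difference (0.07) depended on which leukemia was left out.

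Among the transcription factors, *Klf9* (ENSMUSG00000033863, chr19:23141226-23168134), a Krüppel-like factor that is a direct receptor target in many cells, was expressed at a low level in the leukemias with NOTCH1 targets. Its VEH level there was 0.0393 (2M) to 0.220 FPKM (73M), with a median of 0.105, on 4 to 213 counts. In DEX these leukemias held 0.110 (JW81) to 0.813 FPKM (73A). All 6 ratios were above 2, from 2.05 in 73M to 6.48 in 2M, and 5 of them were past the counting interval, the exception being JW81 with 5 and 11 counts. In the NOTCH-silent leukemias *Klf9* moved from 0.514 to 0.742 FPKM in 5C, from 2.97 to 4.89 in 8633 and from 2.54 to 9.27 in JW14. The VEH values of the groups did not overlap. The log2 fold change over the 9 leukemias was 1.47 ± 0.21 (adjusted p = 0.00268).

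*Zbtb16* (ENSMUSG00000066687, chr9:48654297-48836222) encodes PLZF, a zinc finger repressor of immature blood cells and innate-like T cells. In VEH libraries of the 6 leukemias with NOTCH1 targets it was close to absent, at 0.00738 (JW81) to 0.226 FPKM (73A), and 4 of these libraries held 1 to 4 counts. It was higher in DEX in all 6, at 0.0456 (JW81) to 1.47 FPKM (73A). On so few counts the ratios are wide: 20M, with 2 and 39 counts, gave 35.5 (95% counting interval 9.20 to 304), and JW81, with 1 and 5 counts, gave 6.18 (0.692 to 292). The NOTCH-silent leukemias started much higher and moved from 8.47 to 10.4 FPKM in 5C, from 6.10 to 7.06 in 8633 and from 1.95 to 6.12 in JW14. Leukemia 4638 had the highest level of all, 16.1 FPKM in VEH and 20.7 FPKM in DEX. Over the 9 leukemias *Zbtb16* rose by 1.61 ± 0.39 (adjusted p = 0.0218), but without 73A the adjusted p was 0.0576.

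In VEH libraries the levels of *Zbtb16* and *Klf9* did not overlap between the groups. With the limit of 0.1 FPKM, *Klf9* was higher in the NOTCH-silent leukemias by 4.35 ± 0.65 (adjusted p = 0.00331), where 12.5% of genes were called higher. The other 6 met that limit in VEH only on average (mean 0.108 FPKM), and 2M (0.0393), 78A (0.0784) and JW81 (0.0405) lay under it. *Zbtb16* lay under both limits in the VEH libraries of the other 6 (mean 0.0622 FPKM), so its difference of 6.73 ± 0.92 is a description. Over their VEH and DEX libraries together the other 6 met the limit of 0.1 FPKM (mean 0.258 FPKM). With the limit of 1 FPKM *Zbtb16* and *Klf9* entered only through the NOTCH-silent leukemias, so those differences are descriptions too. Non-overlap with the NOTCH-silent leukemias on top was common, at 13% of the genes tested. In the fit with the limit of 1 FPKM, the difference of *Zbtb16* was 6.66 without 4638, 7.23 with 4638 among the NOTCH-silent leukemias and 1.25 with 4638 among the others, as the rule reads. For *Klf9* these values were 4.25, 3.95 and 3.72. Cell type markers differed between the same libraries. Summed neutrophil genes held 44.2 to 1236 FPKM in the NOTCH-silent leukemias and 1177 to 4648 FPKM in the others, and 12 T lineage genes 525 to 671 and 716 to 1315 FPKM; their part in the level differences was not tested. With the limit of 0.1 FPKM, which both genes met on average in both groups, the difference of the change on the ratio scale, NOTCH-silent minus others, was -2.11 ± 0.51 for *Zbtb16* (adjusted p = 0.213) and -0.65 ± 0.38 for *Klf9* (adjusted p = 0.690). On log2(FPKM + 1), where low levels weigh less, both differences had the opposite sign, 0.18 (exact permutation p = 0.655) for *Zbtb16* and 0.47 (exact permutation p = 0.131) for *Klf9*, and no adjusted or exact p of these 4 tests was under 0.05.

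*Per1* (ENSMUSG00000020893, chr11:69095217-69109960), a repressor of the circadian clock with response elements that glucocorticoids use, varied in its change between leukemias. Its VEH level was 1.04 (78A) to 2.03 FPKM (73M) in the leukemias with NOTCH1 targets, and 5.66, 2.39 and 1.46 FPKM in 5C, 8633 and JW14. In JW81 it rose from 1.29 to 12.6 FPKM, a ratio of 9.73, while the ratio was 0.920 in 73M and 0.823 in 5C. In the other 6 leukemias it was 1.27 to 2.34, each past the counting interval. The log2 fold change of 0.81 ± 0.30 had an adjusted p of 0.0895, which became 0.04997 without 5C and 0.0499 in the 4 leukemias free of ribosomal RNA libraries. *Per1* was not called with such libraries as a term (0.611, adjusted p = 0.252) or in the 5 leukemias that have one (0.893, adjusted p = 0.306). Without JW81 the value was 0.52 (adjusted p = 0.0541). Over all 9 leukemias it was called without a filter on low levels (0.77, adjusted p = 0.0182), and the exact sign-flip permutation test of *Per1* alone gave p = 0.0234. The level difference of 1.08 ± 0.36 in VEH libraries (adjusted p = 0.0494) was 0.41 and not called without 5C, and -0.24 in DEX libraries; it was no longer called under 13 of 18 alternatives and reversed under 1. The *Per1* stretch chr11:69098699-69098948 (plus strand) holds 1 E-box, in capitals, which is in 7.15% of promoter windows. The window of the other listed *Per1* start holds none.
Per1: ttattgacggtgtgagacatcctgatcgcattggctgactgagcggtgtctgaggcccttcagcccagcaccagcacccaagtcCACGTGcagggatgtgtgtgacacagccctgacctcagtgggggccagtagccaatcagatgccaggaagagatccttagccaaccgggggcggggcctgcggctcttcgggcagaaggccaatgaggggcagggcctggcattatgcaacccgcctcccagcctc
Of 10 other genes of the clock output list 7 were tested. None was called higher, and 2 were lower, beside 6.79% of all genes. These were *Dbp*, a PAR bZIP factor driven by CLOCK and BMAL1 (-0.52 ± 0.13, adjusted p = 0.0263), and *Per2*, the paralog of *Per1* (-0.38 ± 0.10, adjusted p = 0.0344). *Per2* is counted again below, among the further genes that glucocorticoids induce. *Dbp* fell in 8 of 9 leukemias, and its level was 1.47 to 3.01 FPKM in VEH and 1.11 to 2.07 FPKM in DEX.

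*Cebpd* (ENSMUSG00000071637, chr16:15887286-15891031), a bZIP factor of the acute-phase response and of myeloid cells, was the single gene of the 10 with a negative log2 fold change. It was barely expressed, at 0.0212 (JW14) to 0.764 FPKM (73A) in VEH and 0.0324 to 0.413 FPKM in DEX. It was higher in DEX only in 2M and JW14, in neither case past the counting interval. It was lower past that interval in 73A (0.541-fold), 73M (0.349-fold) and 5C (0.330-fold). The log2 fold change of -0.59 ± 0.24 did not pass the test (adjusted p = 0.147, limit of 0.1 FPKM). The highest levels, 2.24 and 1.96 FPKM, were in 4638, whose summed neutrophil level was 8733 FPKM in VEH and 5397 FPKM in DEX. The part of neutrophil RNA in the *Cebpd* value was not tested.

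Next come members that act on signalling. *Dusp1* (ENSMUSG00000024190, chr17:26505590-26562128) encodes MKP-1, the phosphatase that removes phosphate from p38, JNK and ERK. In the leukemias with NOTCH1 targets 73A rose from 2.98 to 11.7 FPKM, 73M from 1.69 to 3.86, 78A from 3.40 to 7.27, JW81 from 4.76 to 10.1, 20M from 2.14 to 3.64 and 2M from 2.66 to 4.30. These ratios ran from 1.62 to 3.94. In the NOTCH-silent leukemias it moved from 4.11 to 5.68 FPKM in 5C, from 3.17 to 4.55 in 8633 and from 2.46 to 3.16 in JW14, with ratios of 1.38, 1.43 and 1.28, the last on 308 and 86 counts and within its counting interval (0.997 to 1.63). The log2 fold change over the 9 leukemias was 0.96 ± 0.15 (adjusted p = 0.00414).

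The *Dusp1* change of the NOTCH-silent leukemias lay below that of every other leukemia on log2(FPKM + 1), 0.35 ± 0.079 (SD, n = 3) against 0.92 ± 0.41 (SD, n = 6), with an exact permutation p of 0.0476. The change of the NOTCH-silent leukemias was below all others for 2.09% of the genes tested, and *Dusp1* was the single member among the 7. In edgeR the difference was -0.72 ± 0.25 (adjusted p = 0.341). Leukemia 4638 had the highest level, 9.77 FPKM in VEH and 43.5 FPKM in DEX. With 4638 among the NOTCH-silent leukemias the difference was -0.26 (adjusted p = 0.814), and with 4638 among the others -0.865 (adjusted p = 0.480). VEH levels of *Dusp1* overlapped between the groups (0.18 ± 0.32, adjusted p = 0.699). Its promoter stretch, chr17:26508473-26508722 on the minus strand, is shown because AP-1 and CREB signalling also drive this gene; capitals mark a CRE (TGACGTCA, in 1.79% of windows) and an E-box.
Dusp1: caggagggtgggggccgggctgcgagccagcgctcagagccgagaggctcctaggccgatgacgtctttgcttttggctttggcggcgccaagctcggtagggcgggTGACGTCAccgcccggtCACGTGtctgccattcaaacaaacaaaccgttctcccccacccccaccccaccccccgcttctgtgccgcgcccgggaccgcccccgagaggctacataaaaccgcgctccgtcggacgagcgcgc
*Dusp1* is also an immediate early gene. Of 10 other genes of that class 6 were tested, none was called higher and 1 was called lower, beside 6.22% and 6.79% of all genes. The gene called was *Ier2*, a nuclear early-response protein (-0.29 ± 0.08, adjusted p = 0.0408; lower in 8 of 9 leukemias). The summed level of the list ranged from 21.6 to 61.6 FPKM in VEH and from 18.4 to 99.0 FPKM in DEX, with a median ratio of 0.862. Its ratio was above 1 in 73A (1.28), JW81 (1.61) and JW14 (1.14). The part of immediate early signalling in the *Dusp1* values was not tested.

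*Errfi1* (ENSMUSG00000028967, chr4:150853919-150868892) encodes MIG6, a feedback inhibitor of EGFR family kinases. It was low, and in VEH it held 0.0666 (73A) to 0.201 FPKM (73M) in 5 leukemias with NOTCH1 targets and 1.45 FPKM in JW81. It was higher in DEX in all 6 of them, by 1.35-fold (JW81) to 13.3-fold (73A, on 3 and 74 counts, 95% counting interval 4.39 to 66.2), each past its counting interval. In the NOTCH-silent leukemias it moved from 0.0988 to 0.156 FPKM in 5C, from 0.0941 to 0.0612 in 8633 and from 0.118 to 0.102 in JW14, on 3 to 16 counts and all within counting error. With the limit of 0.1 FPKM the log2 fold change was 1.23 ± 0.33 (adjusted p = 0.0363). The difference between the groups was -1.59 ± 0.70 (adjusted p = 0.551), and on log2(FPKM + 1) -0.40 with an exact permutation p of 0.0238.

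The metallothioneins *Mt1* (ENSMUSG00000031765, chr8:94179082-94180327) and *Mt2* (ENSMUSG00000031762, chr8:94172664-94173568), small cysteine-rich proteins that bind zinc and copper, respond to metals through MTF1 and to glucocorticoids. In VEH libraries *Mt1* held 0.375 (JW81) to 2.35 FPKM (73M) in the leukemias with NOTCH1 targets and 0.514 (8633) to 1.70 FPKM (5C) in the NOTCH-silent leukemias. It was higher in DEX in 7 of 9 leukemias, by 1.44-fold to 3.40-fold. It was lower in 73M (0.592-fold) and 5C (0.512-fold), both past the counting interval. Both have a library with ribosomal RNA, as do 20M (1.58-fold), JW81 (1.44-fold) and JW14 (3.40-fold). The log2 fold change was 0.60 ± 0.26 (adjusted p = 0.143). It was called without 5C (0.77, adjusted p = 0.0400) and in the 4 leukemias free of such libraries (0.95, adjusted p = 0.0450). It was not called with such libraries as a term (0.47, adjusted p = 0.3705) or in the 5 leukemias that have one (0.307, adjusted p = 0.688).

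*Mt2* rested on 1 to 8 counts in VEH libraries of 20M, 2M, 73A, 78A and JW81, where its level was 0.0663 to 0.346 FPKM. In DEX the same leukemias held 0.574 to 1.5 FPKM, 4.33 (20M) to 12.4 (JW81) times as much, each past its counting interval, which on 1 and 10 counts in JW81 ran from 1.76 to 537. In 73M it fell from 2.95 to 1.58 FPKM. In the NOTCH-silent leukemias the ratios of 0.905, 1.95 and 1.15 were within counting error. The log2 fold change, 1.26 ± 0.46, did not pass the test (adjusted p = 0.108, limit of 0.1 FPKM). 73M was also the leukemia whose summed erythroid level dropped most, from 606 to 99.2 FPKM, and the part of other marrow cells in its metallothionein values was not tested. The promoter stretches of both genes, chr8:94178839-94179088 and chr8:94172368-94172617 on the plus strand, are shown up to the start. Capitals mark the core of the metal response element (TGCGCNC or TGCACNC), at 1 place in *Mt1* and 3 places in *Mt2*. The whole windows, which also take in the bases after the start, held the core at 3 places in *Mt1* and 4 in *Mt2*. Of all mouse promoter windows, 25.7% held this core.
Mt1: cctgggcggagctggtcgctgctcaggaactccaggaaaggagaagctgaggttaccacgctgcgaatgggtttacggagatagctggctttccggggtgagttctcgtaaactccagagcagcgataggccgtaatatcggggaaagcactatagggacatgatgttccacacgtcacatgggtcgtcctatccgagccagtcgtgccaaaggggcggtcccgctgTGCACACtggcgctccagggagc
Mt2: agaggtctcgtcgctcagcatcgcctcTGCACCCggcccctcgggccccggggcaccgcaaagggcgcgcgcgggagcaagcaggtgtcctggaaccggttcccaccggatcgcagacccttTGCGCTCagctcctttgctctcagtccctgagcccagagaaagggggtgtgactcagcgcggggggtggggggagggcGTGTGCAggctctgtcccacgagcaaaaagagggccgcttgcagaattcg
Of 6 zinc and MTF1 genes 5 were tested, and 1 was called higher and 1 lower, beside 6.22% and 6.79% of all genes. *Slc30a1*, the zinc exporter that MTF1 induces, was higher in DEX (1.06 ± 0.29, adjusted p = 0.0333; higher in 7 of 9 leukemias), and the zinc importer gene *Slc39a10* was lower (-0.72 ± 0.21, adjusted p = 0.0441; lower in 8 of 9). The *Slc30a1* ratios of 5C (0.929) and JW14 (0.841) were within their counting intervals.

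**Figure D2:**
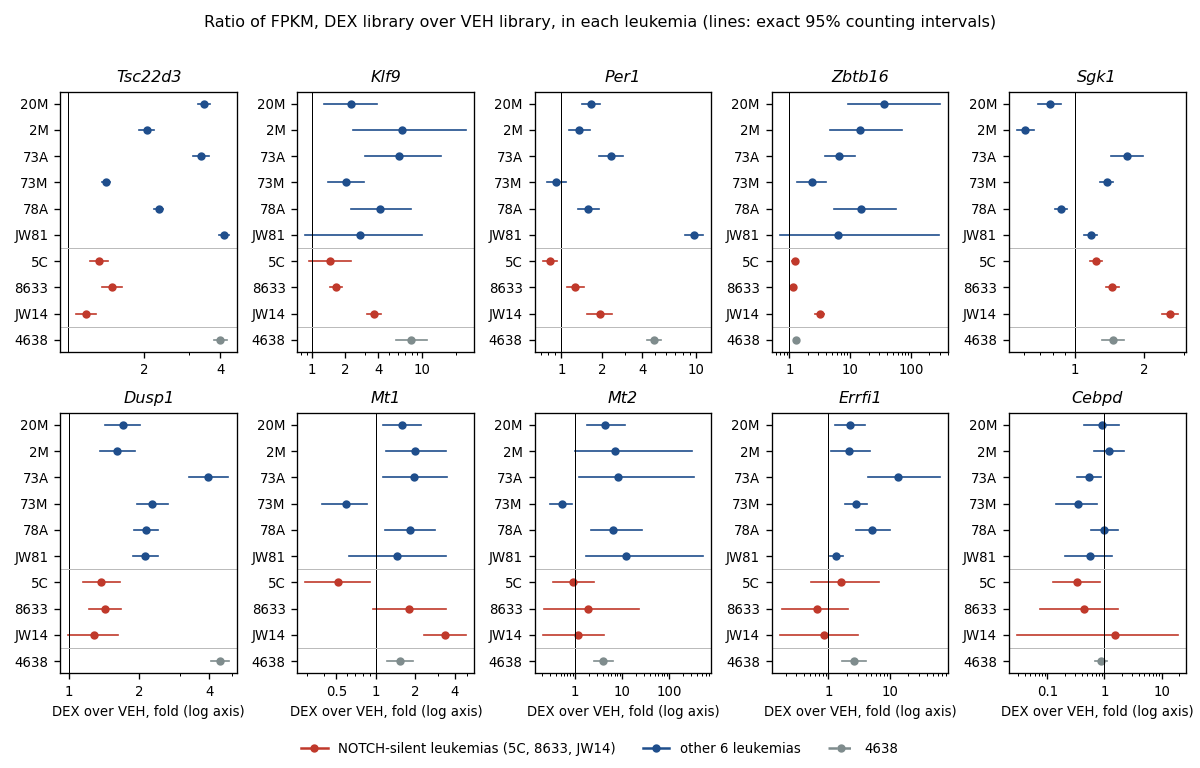
Ratio of FPKM in the DEX library to the VEH library for each gene (horizontal log axis) and leukemia (vertical axis), with exact 95% counting intervals as lines and a vertical line at 1; red marks the NOTCH-silent leukemias, blue the other 6, grey 4638. For *Tsc22d3* the ratios were 1.18 to 1.49 in red and 1.41 to 4.14 in blue, while for *Sgk1* blue ratios lie on both sides of 1.

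Read by leukemia, the 7 genes that reached 1 FPKM were set beside all 11339 genes tested. Past the counting interval on the higher side were 7 of the 7 in 73A (21.6% of all genes), 6 in 20M (22.7%), 2M (24.7%), 78A (26.1%), 8633 (17%) and JW14 (22.9%), 5 in 73M (27.9%), and 4 in JW81 (23.3%) and 5C (16%). Members outside these numbers were *Per1*, *Sgk1*, *Mt1*, *Klf9*, *Zbtb16* or *Dusp1*, depending on the leukemia, and of the 3 low genes *Cebpd* was higher past the interval in no leukemia. These intervals cover counting error only. In 4638 all 7 were higher past the interval, as were 23.5% of all genes.

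Pearson's r between the changes in log2(FPKM + 1) over the 9 leukemias was 0.96 for *Dusp1* and *Errfi1* and 0.86 for *Klf9* and *Zbtb16*, and on log2 ratios it was 0.87 and 0.56. For *Tsc22d3* and *Klf9* the sign turned with the scale, from -0.44 to 0.35. The ratio of *Tsc22d3* was largest in JW81 and smallest in JW14, and that of *Klf9* was largest in 2M (6.48) and smallest in 5C (1.44). Both values of a pair come from the same 2 libraries of a leukemia, so these are descriptions. Outside the list, the changes in log2(FPKM + 1) most like that of *Tsc22d3* over the 9 leukemias were those of *Stau1* (r = 0.955), *Pea15a* (r = 0.923) and *Gm11737* (r = 0.905), none of which was called in the paired comparison.

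Fitted apart, the groups gave different numbers of calls. In the 6 leukemias with NOTCH1 targets 1776 genes were called, 7.74% of all genes being higher. Of the 5 members with a mean of at least 1 FPKM in both groups, *Tsc22d3* (1.44 ± 0.19) and *Dusp1* (1.19 ± 0.16) were called there. The estimates of *Klf9* (1.78 ± 0.27) and *Zbtb16* (2.96 ± 0.42) are descriptions, since in these 6 leukemias both lay under the limit. In the 3 NOTCH-silent leukemias no gene of 11339 was called, 842 (7.43%) had an unadjusted p under 0.05, and *Tsc22d3* (0.43 ± 0.10), *Klf9* (1.14 ± 0.25), *Zbtb16* (0.70 ± 0.25), *Dusp1* (0.48 ± 0.12) and *Sgk1* (0.76 ± 0.19) were among these. The test of the difference itself called 17 genes (0.15%), with none of the 7 members. Of the same 5 members, 2 had an unadjusted p under 0.05 in that test, *Tsc22d3* and *Dusp1*, against 10.5% of all genes. NOTCH-silent leukemias held a library with ribosomal RNA in 2 of 3 cases and the others in 3 of 6. With such libraries as a term, the 4 genes stayed called over the 9 leukemias, with adjusted p from 0.0139 (*Klf9*) to 0.0491 (*Zbtb16*).

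**Figure D3:**
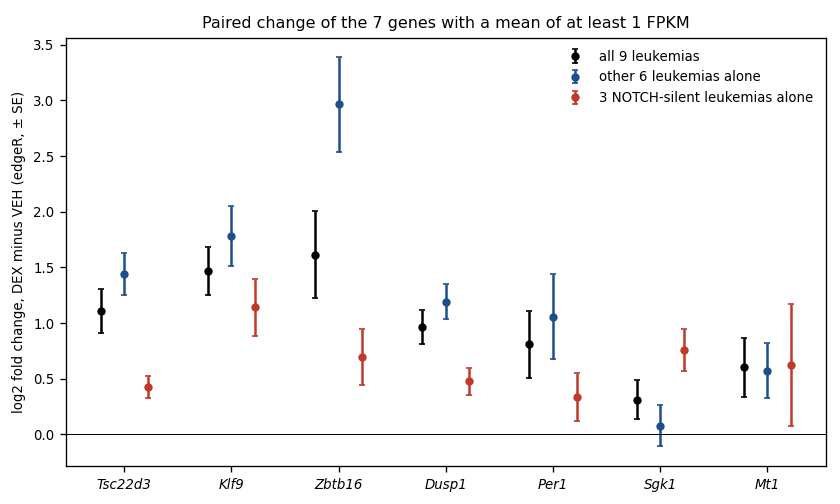
Log2 fold change of DEX minus VEH (vertical axis, edgeR estimate with SE bars) for the 7 genes that reached 1 FPKM on average, fitted over all 9 leukemias (black), the 6 with NOTCH1 targets (blue) and the 3 NOTCH-silent leukemias (red). For *Tsc22d3* the estimate was 1.44 in blue and 0.43 in red, and for *Sgk1* 0.08 and 0.76; no difference of the 2 groups passed the test in edgeR.

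Further genes that glucocorticoids induce were taken from a list of 18, of which 13 were tested, 5 were higher in DEX and 2 lower, beside 6.22% and 6.79% of all genes. The highest ranks by adjusted p went to *Txnip*, an inhibitor of thioredoxin and of glucose uptake (1.48 ± 0.11, adjusted p = 0.000194), *Fkbp5*, the co-chaperone that damps receptor activity (0.94 ± 0.11, adjusted p = 0.00113), *Ddit4*, an inhibitor of mTORC1 (1.44 ± 0.19, adjusted p = 0.00174), and *Bcl2l11*, which encodes the apoptosis inducer BIM (1.04 ± 0.15, adjusted p = 0.00247). All 4 were higher in DEX in 9 of 9 leukemias. The level of *Bcl2l11* was 3.05 to 9.97 FPKM in VEH and 6.56 to 22.6 FPKM in DEX. *Txnip* rose 2.96-fold in 5C, 3.17-fold in 8633 and 2.18-fold in JW14, each within the range of ratios of the other 6 leukemias. The ratios of the NOTCH-silent leukemias lay below those of the other 6 for *Fkbp5*, at 1.43 to 1.45 against 1.56 to 2.89. The same held for *Ddit4*, at 1.25 to 1.99 against 2.13 to 4.90. On log2(FPKM + 1) such a change below all others was found for 2.09% of the genes tested. Leukemia 4638, also low in NOTCH1 targets, had ratios of 3.26 for *Fkbp5* and 3.94 for *Ddit4*. The difference of the change was -0.59 ± 0.17 for *Fkbp5* (adjusted p = 0.238, unadjusted p = 0.00549) and -1.03 ± 0.27 for *Ddit4* (adjusted p = 0.210, unadjusted p = 0.00277). *Fkbp5* stood at 12.8 to 20.4 FPKM in VEH libraries of the NOTCH-silent leukemias and at 64.4 to 99.3 FPKM in the others, with no overlap (-2.30 ± 0.23, adjusted p = 0.000481). Of the 13 genes, 4 were lower in the VEH libraries of the NOTCH-silent leukemias and 1 was higher, beside 14.1% and 15.1% of all genes; *Irs2*, among the 4, reached 1 FPKM only through the other leukemias. The difference of the change was called for none of the 13 genes.

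**Figure D4:**
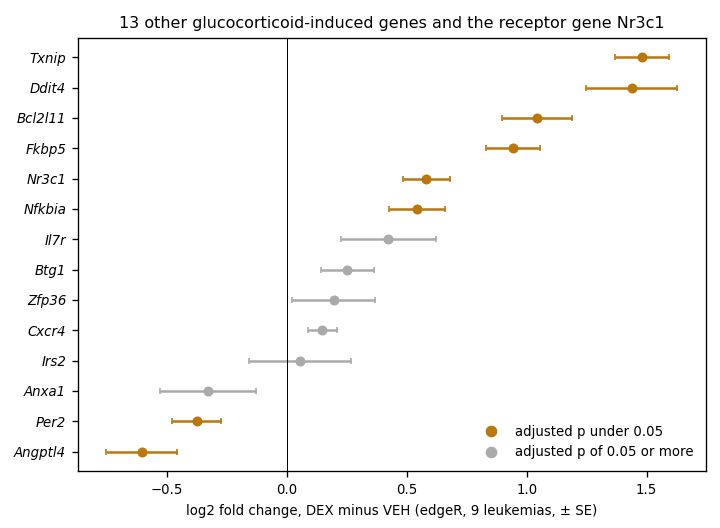
Log2 fold change of DEX minus VEH over 9 leukemias (horizontal axis, edgeR estimate with SE bars) for the 13 tested genes of the further list and for *Nr3c1*; orange marks an adjusted p under 0.05. *Txnip* (1.48), *Ddit4* (1.44), *Bcl2l11* (1.04) and *Fkbp5* (0.94) lie farthest to the right, and *Angptl4* (-0.60) and *Per2* (-0.38) are the 2 called lower.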

How the data were processed

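RNA of bone marrow from transplanted mice was poly(A)-selected by the authors, made into TruSeq libraries, aligned to mm10 with Bowtie 2 and quantified with RSEM. The deposited table holds expected counts per Ensembl gene, not normalized for depth or length; between 68.3% and 74.5% of nonzero values in a library were whole, with no decimal part as deposited. The RSEM version and the annotation are not given in the sources used here. All 20 columns were matched to samples, 3 of them by leukemia alone.

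FPKM were computed from the counts, the library totals and merged exon lengths of GENCODE release M21 (37693 of 39017 genes; the rest held at most 0.585% of a library). Rounded expected counts were tested with edgeR 4.0.16 in R 4.3.3: quasi-likelihood test, TMM, genes that reached 1 FPKM on average, Benjamini-Hochberg adjustment over all of them and an adjusted p threshold of 0.05. Leukemia was a block in the paired fit and in the difference of changes, since both libraries of a pair come from 1 leukemia. Levels were compared in VEH libraries alone. DESeq2 1.42.0 was an alternative. Exact two-sided tests over 512 sign patterns or 84 regroupings used log2(FPKM + 1) in Python 3.11.15 with scipy 1.17.1, and level tests of this kind averaged both libraries. A fold change on that scale understates the change of low genes. Counting intervals are exact 95% intervals of the ratio of 2 counts and, like the floor of 3 counts, cover counting error only. The code was tested on simulated data.

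The members and lists were chosen with earlier results of these data known. All 10 members, *Nr3c1*, up to 4 called genes per further list and the 3 genes most like *Tsc22d3* are named; *Nfkbia*, *Angptl4*, *Irs2*, *Btg1*, *Ciart* and *Gclc* were named after their values were seen. Alternatives were RLE scaling, other filters, 4638 added, each leukemia left out, ribosomal RNA libraries (nuclear ribosomal RNA above 1 count per M counts) apart or as a term, no block, and thinning to the smallest total. After the data were seen, 4638 among the NOTCH-silent leukemias and fits of each group alone were added. Some differences in genotype between the leukemias that overlap the split are not reported here.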

Additional observations from a re-analysis of the deposited data

Results flagged for a closer look

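For each of the 10 genes, VEH levels and changes in log2(FPKM + 1) were examined over the 9 leukemias and over the 6 with NOTCH1 targets for a leukemia that stood apart, by the gap to its nearest neighbour as a share of the whole range. This gave 40 sets of values, of which 15 exceeded Dixon's 95% critical value, where chance gives about 1 in 20, or 2. FPKM levels are skewed, and the 2 sets of a gene share 6 leukemias. JW81 stood apart in the change of *Per1* (2.57, next 0.877; gap share 0.603 of 9 and 0.639 of 6 leukemias) and in the VEH level of *Errfi1* (1.45 FPKM, next 0.201; 0.903 in both sets). 73A stood apart in the change of *Dusp1* (1.68, next 0.952; 0.514 of 9 and 0.636 of 6) and of *Klf9* among the 6 (0.68, next 0.30; 0.656). 73A also had the highest VEH levels of *Zbtb16* among the 6 (0.646) and of *Cebpd* (0.582 of 9 and 0.750 of 6), and its summed neutrophil level was the highest of the 9 (4648 FPKM in VEH). 73M stood apart in the VEH level of *Mt2* (2.95 FPKM; 0.658 of 9 and 0.903 of 6) and in its change among the 6 (-0.61 against a nearest value of 0.54; 0.768); its VEH library is the deepest of all and had the highest summed erythroid level (606 FPKM). JW14 stood apart in the change of *Klf9* (1.54, next 0.68; 0.594 of 9), where its DEX library is the shallowest, with 367 *Klf9* counts, and holds ribosomal RNA. 5C stood apart in the VEH level of *Per1* (5.66 FPKM, next 2.39; 0.708 of 9), in a library with ribosomal RNA. The part of depth, ribosomal RNA or other marrow cells in these values was not tested.

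Leukemia 4638 was outside the comparisons. Its DEX library was above its VEH library, past the counting interval, for all 7 genes that reached 1 FPKM, as for 23.5% of all genes tested, and for *Mt2* and *Errfi1* of the 3 low genes. The ratios were *Klf9* 7.89-fold, *Per1* 4.88-fold, *Dusp1* 4.45-fold, *Tsc22d3* 4.00-fold, *Mt2* 3.95-fold, *Errfi1* 2.59-fold, *Mt1* 1.54-fold, *Sgk1* 1.47-fold and *Zbtb16* 1.28-fold. It has 1 library of each name, so there is no replicate check.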

How the results depend on the processing

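The direction of the paired change of *Tsc22d3*, *Klf9*, *Zbtb16* and *Dusp1* was the same under every alternative tried. All 4 stayed called when any leukemia was left out, except *Zbtb16* without 73A, and all except *Zbtb16* (adjusted p = 0.114) in the 4 leukemias free of ribosomal RNA libraries. In the 5 leukemias with such a library 0 members were called, with adjusted p of 0.138 (*Tsc22d3*), 0.0882 (*Klf9*), 0.143 (*Zbtb16*) and 0.1003 (*Dusp1*) and log2 fold changes of 1.04, 1.26, 1.47 and 0.84. Without the replicate block, so without pairing by leukemia, 0 members were called, as in the NOTCH-silent leukemias alone. Of all genes, 1475 were called; the number was 676 to 2041 with a leukemia left out, 475 without and 15 with a ribosomal RNA library, 465 with that library as a term, 8 without the replicate block and 0 in the NOTCH-silent leukemias alone; fewer samples were fitted in the subsets, and the cause was not tested further. The difference of the change was called for 17 genes, for 206 by DESeq2, 35 among genes of at least 200 bases, 3 with 4638, 28 with 4638 among the NOTCH-silent leukemias and 0 to 142 with a leukemia left out, the lowest without 8633 and the highest without JW81; DESeq2 called 1 member, *Tsc22d3*. On log2(FPKM + 1) the sign of this difference turned for *Klf9* (0.47), *Zbtb16* (0.18) and *Cebpd* (0.0164), and for *Mt1* it ran from -0.62 to 0.795 with a leukemia left out. The level difference was called for 3312 genes, for 1247 with 4638 among the NOTCH-silent leukemias and 1478 to 3548 with a leukemia left out, the lowest without JW14; with 4638 among the others 1 member was called. It turned for *Per1* in DEX libraries (-0.24), for *Dusp1* in summed (-0.29) or DEX libraries (-0.58), with 4638 (-0.24) and on log2(FPKM + 1) (-0.15), and for *Mt1* in summed libraries (-0.0934), with 4638 (-0.51) and over a range of -0.12 to 0.49 with a leukemia left out. Depth limits *Zbtb16*, *Klf9*, *Mt2*, *Errfi1* and *Cebpd*, which rest on few counts in many libraries.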

Other observations

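Levels of other glucocorticoid-induced genes also differed between the VEH libraries of the 2 groups. *Fkbp5*, *Btg1*, an antiproliferative factor (-2.70 ± 0.43, adjusted p = 0.00362), and *Txnip* (-1.16 ± 0.21, adjusted p = 0.00643) were lower in the NOTCH-silent leukemias, and *Angptl4*, an inhibitor of lipoprotein lipase, was higher (1.20 ± 0.24, adjusted p = 0.00811), in edgeR with Benjamini-Hochberg adjustment. In the same comparison *Gclc*, which makes a subunit of the enzyme that starts glutathione synthesis, was higher (1.68 ± 0.26, adjusted p = 0.00337). Values of 2 further genes are descriptions, since each reached the limit of 1 FPKM only through the group where it was high. *Irs2*, an adaptor of insulin signalling, held 0.0426 to 0.159 FPKM in VEH libraries of the NOTCH-silent leukemias and 1.04 to 3.63 FPKM in the others, and *Ciart*, a clock repressor, 1.07 to 2.23 and 0.352 to 1.03 FPKM. *Nfkbia*, which encodes the NF-κB inhibitor IκBα, was higher in DEX by 0.54 ± 0.12 (adjusted p = 0.0136): it moved from 22.2 to 46.9 FPKM in 73A and was 26.5 FPKM in both libraries of 5C. The difference of its change, NOTCH-silent minus others, was -0.62 ± 0.18 (adjusted p = 0.232).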
